A study of Rattus norvegicus with 8 samples.

Results

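The genes described here are 46 cell cycle and DNA replication genes: 17 that copy DNA or make its building blocks, 26 that act in mitosis and 3 that regulate the step from G1 into S phase. Members were found by matching the RefSeq accession of each array probe to their symbols. This gave 50 probes for 41 of the 46 genes, out of 30367 probes on the array, and all 41 were bright enough to test: 16 replication genes, 22 mitotic genes and 3 G1/S regulators. No probe was matched for Mki67, Top2a, Bub1b, Ect2 and Mcm5, whose expression is not analysed here; they enter only the counts of promoter motifs. The samples were primary neuron cultures from rat embryos (Sprague Dawley, embryonic day 18, cortex and hippocampus), kept for 7 days in vitro before treatment. The 4 treatments were CAT-SKL alone for 24 h, ADDL alone for 24 h, CAT-SKL for 24 h followed by ADDL for 24 h (CAT-SKL+ADDL), and ADDL for 24 h followed by CAT-SKL for 24 h (ADDL+CAT-SKL), each agent at 1 µM. Combined names were read in order of treatment. CAT-SKL is an antioxidant protein derived from catalase that carries a peroxisomal targeting signal, and ADDL are soluble oligomers of the amyloid-beta peptide that forms the plaques of Alzheimer's disease. Its stated question was which genes respond to ADDL when the antioxidant is present or absent. Each treatment had 2 arrays, and each array set treated RNA in Cy5 against vehicle-treated RNA in Cy3, without a dye swap.

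Values are log2 ratios of treated over vehicle, so 0 means no difference and 1 means 2-fold more in the treated sample. The 11 neuron markers tested, among them Tubb3, Stmn2 and Map2, were well above background in the vehicle channel on all 8 arrays. The 11 astrocyte markers and the 9 neural progenitor markers tested were also above background there on all 8 arrays, so RNA of other cell types was present too. In such bulk samples, fewer cells of a type and less RNA per cell cannot be told apart. The CAT-SKL+ADDL arrays differed no more than the noise of duplicate spots allows: the SD of their difference was 1.01 times that noise, against 1.35 to 2.42 times for the other 27 pairs of arrays. The r of their differences between duplicate spots was 0.00712, against 0.291 to 0.709. They were averaged into 1 sample, although the design calls them biological replicates. This sample is assumed to vary like the other groups. The ADDL+CAT-SKL 2 array had the dimmest Cy5 channel, with 73.0% of probes well above background against 76.8% to 80.8% on the other 7. Single and sequential treatments occupied different slide rows, so position, duration and sequence of agents cannot be told apart.

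Dividing cells copy their DNA in S phase and separate it in mitosis. The genes for replication are switched on mainly by E2F factors as a cell leaves G1, whereas genes for mitosis are switched on later, through the CHR element and the NF-Y box of their promoters, and the DREAM complex keeps both sets low in resting cells. Neurons are post-mitotic and no longer divide, so in cultures of embryonic brain these transcripts are usually attributed to progenitors and glia that still cycle.

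The promoters of the members divided along the same line. RefSeq start sites (build GRCr8) gave windows of 300 bases, 250 before and 50 after the start, for 37 of the 46 members, of which 32 were tested on the arrays and 5 had no matched probe. The E2F core (TTCCCGC or TTGGCGC, on either strand) was present in 11 of 14 replication promoters and 4 of 22 mitotic promoters, against 6.26% of all 33469 windows. The CHR element (TTTGAA) was present in 16 of 22 mitotic promoters and 1 of 14 replication promoters, that of Mcm2, against 18.3% of all windows. The NF-Y box (CCAAT) was present in 19 of 22 mitotic and 10 of 14 replication promoters, against 37.5% of all windows. A CHR element and an NF-Y box lay in the same window in 15 of 22 mitotic promoters, against 7.41% of all windows. The longer pathway lists had the same split, with the E2F core in 20 of 37 other replication genes and the CHR element in 33 of 52 other mitotic genes. The sequences below are the 120 bases before the start, with these motifs in capitals, for both mitotic members that passed a test (Birc5 and Kpna2), for Cdk1 and Cdc20 as examples with both mitotic motifs, for 3 replication members that stood above vehicle in some treatments (Mcm3, Mcm7 and Gins1) and for 1 that did not (Pola1). In Mcm7 the E2F core at -48 shares letters with an NF-Y box, and in Gins1 matches on the opposite strands overlap. In Mcm3 the E2F core at -6 runs past the start, so its last letter is not printed. Motifs further than 120 bases before the start are not printed either. Among these are the NF-Y box of Birc5 at -213 and an E2F core of Cdk1 at -180, so Cdk1 is 1 of the 4 mitotic promoters with that core.
Birc5, chr10:103572026-103572145, plus strand: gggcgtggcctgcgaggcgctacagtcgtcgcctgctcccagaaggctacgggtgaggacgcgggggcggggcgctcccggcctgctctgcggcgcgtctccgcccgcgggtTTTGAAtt
Kpna2, chr10:92445842-92445961, minus strand: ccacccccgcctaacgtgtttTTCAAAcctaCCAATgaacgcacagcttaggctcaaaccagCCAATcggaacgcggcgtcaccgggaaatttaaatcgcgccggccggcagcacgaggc
Cdk1, chr20:19265173-19265292, plus strand: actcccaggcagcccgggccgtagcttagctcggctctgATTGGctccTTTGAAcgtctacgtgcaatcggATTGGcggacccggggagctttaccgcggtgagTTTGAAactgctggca
Cdc20, chr5:137255800-137255919, minus strand: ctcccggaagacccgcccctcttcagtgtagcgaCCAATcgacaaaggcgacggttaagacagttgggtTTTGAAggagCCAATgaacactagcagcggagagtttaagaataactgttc
Mcm3, chr9:30733747-30733866, minus strand: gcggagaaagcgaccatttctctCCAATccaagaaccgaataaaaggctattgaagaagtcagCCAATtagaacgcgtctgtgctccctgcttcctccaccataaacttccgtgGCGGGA
Mcm7, chr12:22163179-22163298, minus strand: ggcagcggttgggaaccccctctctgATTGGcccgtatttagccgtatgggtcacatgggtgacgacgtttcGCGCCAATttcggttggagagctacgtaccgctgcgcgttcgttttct
Gins1, chr3:160184800-160184919, plus strand: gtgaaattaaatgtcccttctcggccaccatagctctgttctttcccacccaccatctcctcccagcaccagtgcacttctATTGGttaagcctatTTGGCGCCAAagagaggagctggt
Pola1, chrX:62342356-62342475, minus strand: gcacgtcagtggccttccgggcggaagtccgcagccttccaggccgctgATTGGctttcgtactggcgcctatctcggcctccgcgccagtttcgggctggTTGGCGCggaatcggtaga

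**Figure D1:**
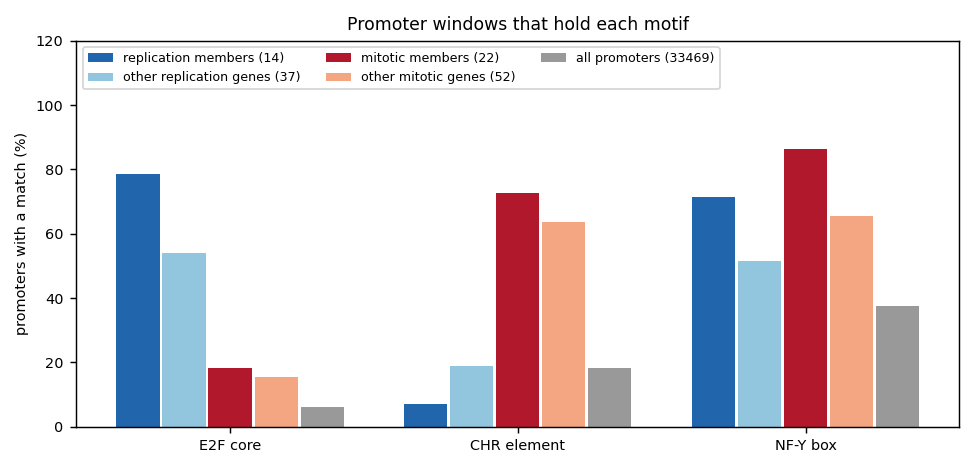
Share of promoter windows (percent, y axis) with a match to the E2F core, the CHR element and the NF-Y box, for replication members, other replication genes, mitotic members, other mitotic genes and all promoters, with the number of windows in brackets. The E2F core is in 78.6% of replication members and 18.2% of mitotic members, and the CHR element in 7.14% and 72.7%.

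Mitotic genes stood above vehicle more evenly than replication genes in all 4 treatments. The median log2 ratio of the 22 mitotic genes was 0.23 after CAT-SKL, 0.22 after ADDL, 0.33 after CAT-SKL+ADDL and 0.15 after ADDL+CAT-SKL. The corresponding medians of the 16 replication genes were 0.11, 0.04, 0.17 and 0.06, and those of all 22394 genes and accessions tested lay between -0.00 and 0.00. In the mean of both arrays, 22, 22, 21 and 22 of 22 mitotic genes lay above 0 in these treatments, against 13, 9, 13 and 13 of 16 replication genes. With median centring and no loess, the mitotic counts were 20, 22, 20 and 20. Both arrays were above 0 for 19, 20, 21 and 17 mitotic genes and for 10, 8, 11 and 5 replication genes, against 32.4%, 32.2%, 36.3% and 30% of all genes. On all 8 arrays at once, 14 of 22 mitotic genes lay above 0, as did 2 of 16 replication genes (Rrm2 and Mcm3) and 1 of 3 G1/S regulators (Ccnd1), against 7.46% of all genes. Each gene was read by its brightest probe. The second probes of Rrm2 and Mcm3 were below 0 on the ADDL+CAT-SKL 2 array (-0.10 and -0.05). In these counts, and wherever all 8 arrays are named, the CAT-SKL+ADDL arrays enter as 2 although they were averaged into 1 sample for the fit. Their agreement therefore adds little. These are counts and medians over genes that share samples, not tests.

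The order of the classes was the same on each array, while the size varied between arrays of a treatment. The mitotic median was 0.33 and 0.15 on the CAT-SKL arrays, 0.15 and 0.32 on the ADDL arrays, 0.32 and 0.38 on the CAT-SKL+ADDL arrays, and 0.25 and 0.08 on the ADDL+CAT-SKL arrays. The replication median was 0.13 and 0.03, 0.04 and 0.08, 0.21 and 0.11, and 0.14 and -0.04 on the same arrays. The mitotic median exceeded the replication median by 0.10 to 0.27. Without the first ADDL+CAT-SKL array, the replication median of that treatment was -0.04.

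**Figure D2:**
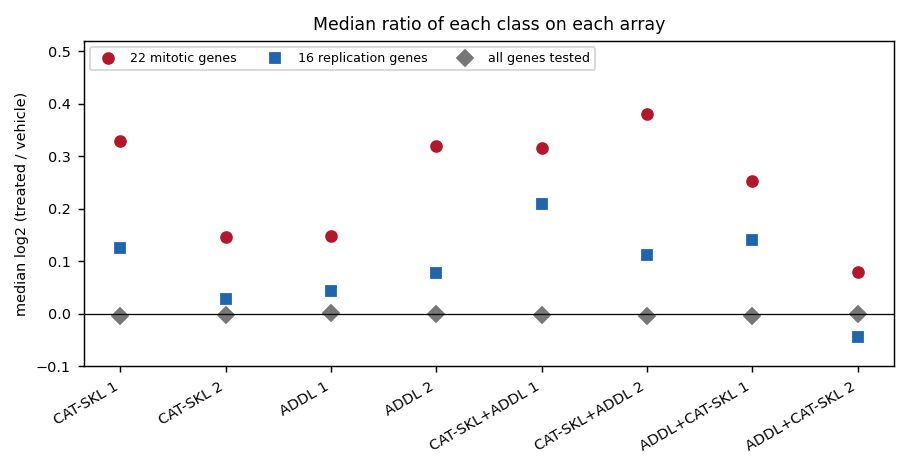
Median log2 ratio of treated over vehicle (y axis) on each of the 8 arrays (x axis) for the 22 mitotic genes, the 16 replication genes and all genes tested. Circles of mitotic genes lie above the squares of replication genes on all 8 arrays, by 0.10 to 0.27, and the median of all genes lies near 0.

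Few members passed the test over all genes (limma, two-sided, Benjamini-Hochberg adjusted p under 0.05). After CAT-SKL, 2 of 41 members rose, Birc5 and Ccnd1, and none fell, against 2.85% of all genes, 0.915% higher and 1.94% lower (205 and 434 genes, or 1385 and 385 with median centring). After ADDL+CAT-SKL, 1 of 41 rose, Kpna2, against 0.478% of all genes, 0.246% higher and 0.232% lower. After ADDL and after CAT-SKL+ADDL, limma called 0 members and 0% of all genes. These counts depend on the averaging of the CAT-SKL+ADDL arrays: kept as 2 samples, 7, 9, 20 and 5 members rose after CAT-SKL, ADDL, CAT-SKL+ADDL and ADDL+CAT-SKL, against 8.20%, 4.41%, 10.4% and 4.02% of all genes. With median centring 11, 7, 5 and 2 members rose. The number of all genes called with median centring is given here for CAT-SKL only. The counts for the other treatments are thus no result about the members. At an unadjusted p under 0.05, 20, 20, 20 and 11 of 41 members were higher than vehicle after CAT-SKL, ADDL, CAT-SKL+ADDL and ADDL+CAT-SKL, and none was lower. The shares of all genes that were higher at this p were 9.64%, 9.85%, 5.38% and 7.99%, and those that were lower 11.6%, 9.16%, 6% and 9.61%. By class, the members higher at this p were 14, 12, 13 and 9 of 22 mitotic genes, 5, 5, 5 and 2 of 16 replication genes, and 1, 3, 2 and 0 of 3 G1/S regulators. The 4 treatments were each set against vehicle RNA, so their values share a reference and its spread is not in the test.

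Among the replication genes, the enzymes that supply nucleotides differed widely from each other. Rrm2, the regulatory subunit of ribonucleotide reductase, had the highest values of its class: 0.92 and 0.41 on the CAT-SKL arrays, 0.74 and 0.97 on the ADDL arrays, 1.06 and 1.09 on the CAT-SKL+ADDL arrays, and 0.90 and 0.34 on the ADDL+CAT-SKL arrays. By this probe, its brightest, all 8 arrays were above vehicle. The ranges of the treatments overlapped except that both CAT-SKL+ADDL arrays lay above the others. The mean change was 0.67 ± 0.15 (SE), 0.86 ± 0.15, 1.08 ± 0.21 and 0.62 ± 0.15, or 1.59-, 1.81-, 2.11- and 1.54-fold, with adjusted p of 0.0541, 0.0689, 0.193 and 0.0946 in limma. A second Rrm2 probe was well above background in the vehicle channel on only 1 of 8 arrays. Its means were 0.21, 0.12, 0.34 and 0.03 in the same order, and it was below vehicle on the ADDL+CAT-SKL 2 array (-0.10). The offset added to each channel draws the ratios of such dim probes towards 0. Whether this accounts for the gap between the probes was not tested. Rrm1, the catalytic subunit of the same enzyme, lay between -0.15 and 0.07 on all 8 arrays. Tk1, thymidine kinase of the salvage pathway, had 0.47 and 0.21 after CAT-SKL, 0.28 and 0.43 after ADDL, 0.40 and 0.45 after CAT-SKL+ADDL, and 0.48 and -0.07 after ADDL+CAT-SKL, with no adjusted p under 0.164. Tyms, thymidylate synthase, scattered from -0.19 to 0.21 without a common direction.

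The MCM proteins form the ring that unwinds DNA at replication forks, and its subunits did not share 1 pattern. Mcm3 had 0.38 and 0.15 after CAT-SKL, 0.53 and 0.46 after ADDL, 0.65 and 0.73 after CAT-SKL+ADDL, and 0.28 and 0.01 after ADDL+CAT-SKL. By this probe, its brightest, Mcm3 was above vehicle on all 8 arrays and highest in the 2 treatments that ended with ADDL. The mean change of Mcm3 was 0.49 ± 0.08 after ADDL (adjusted p = 0.0689 in limma) and 0.69 ± 0.11 after CAT-SKL+ADDL (adjusted p = 0.193). Its second probe gave 0.30 and 0.17 in these treatments and 0.27 and 0.22 after CAT-SKL and ADDL+CAT-SKL. By that probe the mean was lowest after CAT-SKL+ADDL, and the ADDL+CAT-SKL 2 array was below vehicle (-0.05). Mcm7 had 0.32 and 0.27 after ADDL, 0.22 and 0.31 after CAT-SKL+ADDL, and -0.09 and -0.19 after ADDL+CAT-SKL, so its arrays lay on both sides of vehicle. The brightest probe of Mcm2 and the probe of Mcm6 ranged from -0.13 to 0.35 and were below vehicle only on the ADDL+CAT-SKL 2 array. A second Mcm2 probe was also below vehicle on the CAT-SKL arrays (-0.05 and -0.01) and reached -0.26 on ADDL+CAT-SKL 2. Mcm4 ranged from -0.21 to 0.29, both on ADDL+CAT-SKL arrays, and its second probe from -0.32 to 0.11.

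The loading and initiation factors were mostly near vehicle. Gins1, a subunit of the GINS complex that joins MCM at the fork, had 0.39 and 0.09, 0.15 and 0.34, 0.43 and 0.47, and 0.23 and -0.10 after CAT-SKL, ADDL, CAT-SKL+ADDL and ADDL+CAT-SKL. Gmnn encodes geminin, which blocks Cdt1 and so a second round of licensing. Gmnn had 0.08 and 0.22 after CAT-SKL, -0.03 and 0.01 after ADDL, 0.27 and 0.07 after CAT-SKL+ADDL, and 0.31 and 0.28 after ADDL+CAT-SKL. It was the only replication gene besides Rrm2 with an unadjusted p under 0.05 after ADDL+CAT-SKL, with a mean change of 0.29 ± 0.06 and an adjusted p of 0.0699 in limma. Cdc6 and Cdt1, which load the MCM ring, stayed between -0.12 and 0.13. Pola1 and Prim1, subunits of the polymerase alpha and primase complex, lay between -0.13 and 0.11. Pcna, the sliding clamp of the polymerases, lay between -0.06 and 0.17. None of these 5 genes had an unadjusted p under 0.05 in any treatment.

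**Figure D3:**
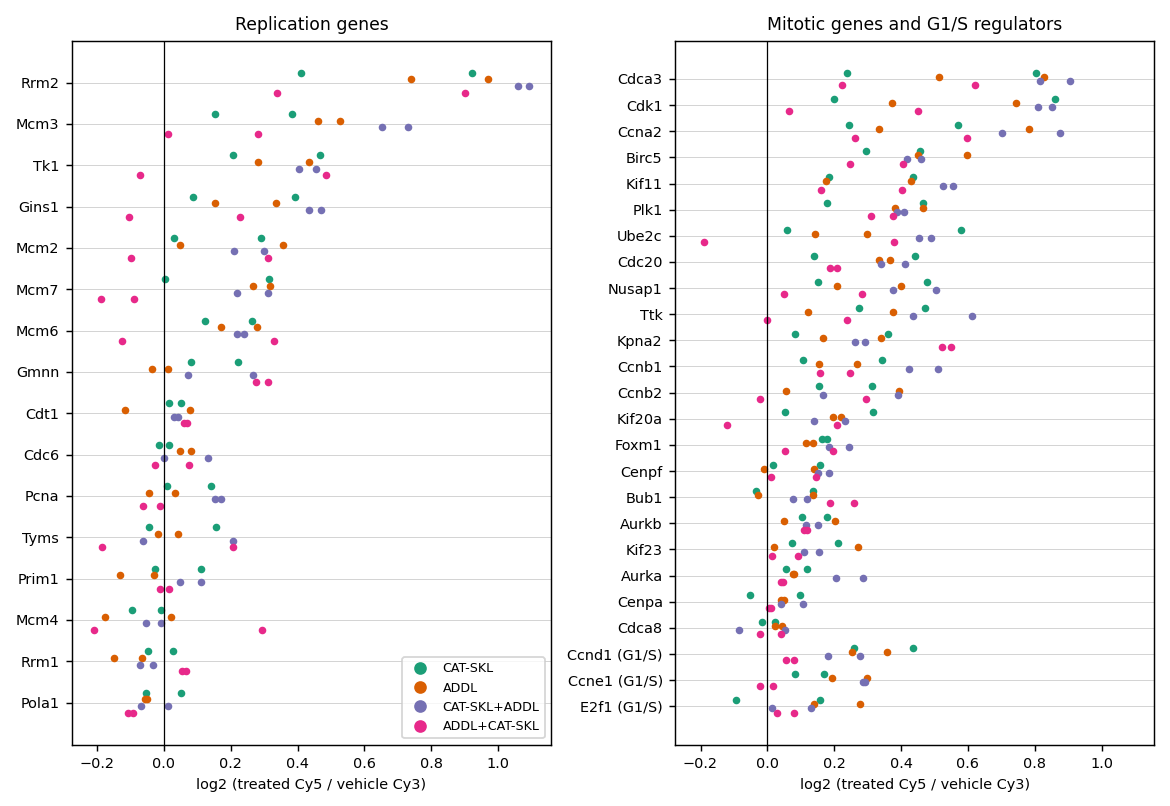
Log2 ratio of treated over vehicle (x axis) of the 41 members (rows), with 1 point for each of the 8 arrays, coloured by treatment; rows are ordered by median within each class. Each gene is shown by its brightest probe. Most mitotic genes lie to the right of 0 on most arrays. Among replication genes, Rrm2 and Mcm3 lie to the right on all 8 and the lower rows scatter around 0.

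Among the mitotic genes, the kinase that drives entry into mitosis and its cyclins were above vehicle in the mean of every treatment. Cdk1 had 0.86 and 0.20 after CAT-SKL, 0.37 and 0.74 after ADDL, 0.81 and 0.85 after CAT-SKL+ADDL, and 0.45 and 0.07 after ADDL+CAT-SKL. Arrays of a treatment differed by up to 0.66, and adjusted p lay between 0.106 and 0.45 in limma. Ccna2, the cyclin A that serves S phase and early mitosis, had 0.57 and 0.24, 0.33 and 0.78, 0.70 and 0.88, and 0.60 and 0.26, and its second probe gave treatment means of 0.31, 0.41, 0.62 and 0.36. Ccnb1 and Ccnb2, the B-type cyclins that partner Cdk1, had means of 0.22 and 0.23 after CAT-SKL, 0.21 and 0.22 after ADDL, 0.47 and 0.28 after CAT-SKL+ADDL, and 0.20 and 0.14 after ADDL+CAT-SKL. Foxm1, a transcription factor of mitotic genes, lay between 0.05 and 0.24 on all 8 arrays by its brightest probe, and between -0.07 and 0.28 by a dimmer one.

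The chromosomal passenger and checkpoint genes included 1 that passed the test. Birc5 encodes survivin, a subunit of the chromosomal passenger complex. Birc5 had 0.46 and 0.29 after CAT-SKL, 0.45 and 0.60 after ADDL, 0.46 and 0.42 after CAT-SKL+ADDL, and 0.41 and 0.25 after ADDL+CAT-SKL. All 8 arrays were above vehicle. Both ADDL arrays and both CAT-SKL+ADDL arrays lay above both ADDL+CAT-SKL arrays, and the other pairs of treatments overlapped. Birc5 rose after CAT-SKL by 0.37 ± 0.07 (1.30-fold, adjusted p = 0.0403 in limma), and the changes in the other treatments were 0.52 ± 0.07, 0.44 ± 0.10 and 0.33 ± 0.07 with adjusted p of 0.0689, 0.196 and 0.0792. Its CAT-SKL call was lost without any 1 of the CAT-SKL, ADDL or ADDL+CAT-SKL arrays (adjusted p 0.0560 to 0.452), with the change between 0.29 and 0.46. Plk1, polo-like kinase, was nearly as steady, between 0.18 and 0.47 on all 8 arrays, with adjusted p of 0.0583, 0.0689, 0.222 and 0.0792. Ttk, the kinase that starts the spindle checkpoint, had 0.47 and 0.27, 0.12 and 0.38, 0.61 and 0.44, and 0.24 and -0.00. Bub1, another checkpoint kinase, had its highest mean by its brightest probe after ADDL+CAT-SKL (0.22 ± 0.07), and 0.05, 0.06 and 0.10 after CAT-SKL, ADDL and CAT-SKL+ADDL. A second Bub1 probe was well above background in the vehicle channel on 0 of 8 arrays. Its means were 0.03, -0.08, 0.04 and 0.01 after CAT-SKL, ADDL, CAT-SKL+ADDL and ADDL+CAT-SKL. Aurka, a centrosome kinase, lay between 0.04 and 0.12 except on the CAT-SKL+ADDL arrays, where it had 0.29 and 0.21.

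Genes around the anaphase-promoting complex were also above vehicle in the mean of every treatment. Cdc20, its activator, lay between 0.14 and 0.44 on all 8 arrays, with means of 0.29, 0.35, 0.38 and 0.20. Cdca3, a trigger of mitotic entry, had the highest mean of the class in 2 treatments: its arrays gave 0.80 and 0.24 after CAT-SKL, 0.51 and 0.83 after ADDL, 0.91 and 0.82 after CAT-SKL+ADDL, and 0.62 and 0.22 after ADDL+CAT-SKL. Ube2c, the ubiquitin-conjugating enzyme of this complex, ranged from -0.19 to 0.58, both ends in arrays whose partner differed by over 0.5. The motor Kif11, which separates the spindle poles, lay between 0.16 and 0.56 on all 8 arrays. Nusap1, a protein that bundles spindle microtubules, lay between 0.05 and 0.51. Kif20a and Kif23, motors of cytokinesis, lay between -0.12 and 0.32.

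Kpna2 had its highest values after ADDL+CAT-SKL. Kpna2 encodes an importin alpha that carries proteins into the nucleus. It had 0.08 and 0.36 after CAT-SKL, 0.17 and 0.34 after ADDL, 0.29 and 0.26 after CAT-SKL+ADDL, and 0.55 and 0.52 after ADDL+CAT-SKL. Both ADDL+CAT-SKL arrays lay above the other 6, in the treatment with the lowest mitotic median. Kpna2 rose there by 0.54 ± 0.08 (1.45-fold, adjusted p = 0.0432 in limma). The call was lost without any 1 of the CAT-SKL, ADDL or ADDL+CAT-SKL arrays (adjusted p 0.0600 to 0.303), with the change between 0.52 and 0.55.

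Of the G1/S regulators, the cyclins were nearest to vehicle after ADDL+CAT-SKL. Ccnd1, cyclin D1, which responds to growth signals, had 0.44 and 0.26 after CAT-SKL, 0.36 and 0.25 after ADDL, 0.18 and 0.28 after CAT-SKL+ADDL, and 0.08 and 0.06 after ADDL+CAT-SKL. Both ADDL+CAT-SKL arrays lay below the other 6. Ccnd1 rose after CAT-SKL by 0.35 ± 0.06 (1.27-fold, adjusted p = 0.0384 in limma), and the adjusted p after ADDL was 0.0727. Its CAT-SKL call was lost without the first CAT-SKL array or any 1 of the ADDL or ADDL+CAT-SKL arrays (adjusted p 0.0560 to 0.440), with the change between 0.26 and 0.35. Ccne1, cyclin E1, which acts at entry into S phase, had 0.17 and 0.08, 0.30 and 0.19, 0.29 and 0.29, and -0.02 and 0.02. E2f1, the founding E2F factor, had 0.28 and 0.14 after ADDL and lay between -0.09 and 0.16 on the other arrays. Its second probe, above background on all 8 arrays, gave -0.12 and 0.04 after ADDL and ranged from -0.21 to 0.17, and the means of both probes differed in sign in each treatment but CAT-SKL.

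**Figure D4:**
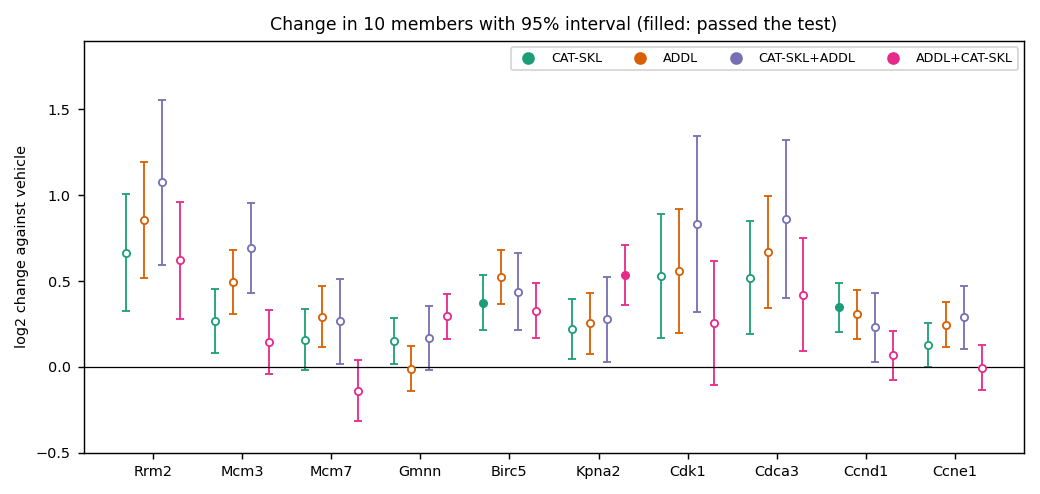
Log2 change against vehicle (y axis) with its 95% confidence interval from limma for 10 members (x axis) in the 4 treatments, with filled points where the adjusted p was under 0.05. Birc5 and Ccnd1 are filled after CAT-SKL and Kpna2 after ADDL+CAT-SKL; Mcm7, Ccnd1 and Ccne1 are lowest after ADDL+CAT-SKL, and Gmnn and Kpna2 highest.

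Treatments were also set against each other, and no member passed in any of the 4 comparisons, in which limma called 0% of all genes. Between CAT-SKL and ADDL no member had an unadjusted p under 0.05, against 8.75% of all genes. The difference of CAT-SKL minus ADDL was -0.15 for Birc5 (95% interval -0.37 to 0.08) and 0.04 for Ccnd1 (-0.16 to 0.24), so the CAT-SKL calls of these genes were not shown to differ from ADDL. Between CAT-SKL+ADDL and ADDL no member had such a p either, against 3.91% of all genes. For ADDL+CAT-SKL against ADDL, 6 members had an unadjusted p under 0.05, against 8.46% of all genes (3.71% higher and 4.75% lower). Of these, 4 were lower after ADDL+CAT-SKL: Mcm7 by -0.43 (-0.68 to -0.18), Mcm3 by -0.35 (-0.61 to -0.08), Ccne1 by -0.25 (-0.43 to -0.07) and Ccnd1 by -0.24 (-0.44 to -0.04). The other 2 were higher, Gmnn by 0.30 (0.12 to 0.49) and Kpna2 by 0.28 (0.03 to 0.53). The adjusted p of these 6 was 0.568 to 0.570 in limma. For CAT-SKL+ADDL against ADDL+CAT-SKL, Mcm3 differed by 0.54 (0.22 to 0.87), Mcm7 by 0.40 (0.10 to 0.71), Ttk by 0.41 (0.06 to 0.75) and Ccne1 by 0.29 (0.07 to 0.52), each with an adjusted p of 0.857. Those 4 of 41 compare with 5.65% of all genes at an unadjusted p under 0.05 (2.98% higher and 2.67% lower). The Mcm3 differences in both comparisons are those of its brightest probe. Its second probe, well above background on all 8 arrays, had means of 0.30 after ADDL, 0.17 after CAT-SKL+ADDL and 0.22 after ADDL+CAT-SKL. By that probe CAT-SKL+ADDL lay below ADDL+CAT-SKL, the opposite order.

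The remaining genes of the pathway were followed in longer lists. Of 40 other mitotic genes tested, 1 rose after CAT-SKL and none fell, against 0.915% of all genes higher and 1.94% lower. Their medians were 0.11, 0.08, 0.19 and 0.09 in the 4 treatments. The one that rose was Spc25, a subunit of the NDC80 complex that ties microtubules to kinetochores, with 0.48 and 0.39 (0.44 ± 0.09, adjusted p = 0.0460 in limma). At an unadjusted p under 0.05, 15, 12, 17 and 8 of these 40 were higher and 2 were lower in each treatment. The shares of all genes at this p were 9.64%, 9.85%, 5.38% and 7.99% higher and 11.6%, 9.16%, 6% and 9.61% lower. Cks2, a small partner of Cdk1, had 0.49 and 0.18, 0.32 and 0.30, 0.70 and 0.50, and 0.34 and 0.14 without passing. Lmnb1, lamin B1 of the nuclear envelope, went the other way after CAT-SKL with -0.37 and -0.50 (adjusted p = 0.0597). Of 34 other replication genes none passed in any treatment, and their medians were 0.04, 0.02, 0.07 and 0.02. At an unadjusted p under 0.05, 3, 4, 4 and 1 of these 34 were higher and 0, 2, 0 and 2 lower, against the same shares of all genes. Cdc45, which joins MCM and GINS in the helicase, had 0.08 and 0.11, 0.30 and 0.19, 0.35 and 0.39, and 0.25 and 0.13.

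Of 7 inhibitors of cyclin-dependent kinases tested, 1 passed, after CAT-SKL, where 2.85% of all genes passed. Cdkn1c, which encodes p57 and restrains the cell cycle, had 1.11 and 0.35 after CAT-SKL, 0.52 and 0.49 after ADDL, 1.26 and 1.23 after CAT-SKL+ADDL, and 0.08 and -0.12 after ADDL+CAT-SKL. Cdkn1c rose after CAT-SKL by 0.73 ± 0.15 (adjusted p = 0.0456 in limma), and its arrays lay on both sides of vehicle after ADDL+CAT-SKL. Cdkn1a, which encodes p21, had -0.30 and -0.32 after CAT-SKL+ADDL and lay between -0.22 and 0.03 on the other arrays. Of 16 other regulators none passed, and their medians were 0.10, 0.03, 0.06 and -0.02 in the 4 treatments. At an unadjusted p under 0.05 in limma, 5, 5, 4 and 2 of these 16 were higher and 1, 3, 1 and 3 lower. The shares of all genes at this p were 9.64%, 9.85%, 5.38% and 7.99% higher and 11.6%, 9.16%, 6% and 9.61% lower. Mybl2, which joins the complex that activates mitotic genes, had 0.21 and 0.34, 0.23 and 0.50, 0.40 and 0.47, and 0.28 and 0.18. After ADDL, Rbl2 had 0.26 and 0.30, while Myc was below vehicle with -0.25 and -0.31. E2f3 was also below vehicle, with -0.34 and -0.17 after CAT-SKL and -0.21 and -0.37 after CAT-SKL+ADDL.

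Markers of other cell types were read on the same arrays. The median of the 11 astrocyte markers was 0.82 and 0.20 on the CAT-SKL arrays, 0.46 and 0.81 on the ADDL arrays, 0.58 and 0.52 on the CAT-SKL+ADDL arrays, and 0.29 and -0.02 on the ADDL+CAT-SKL arrays. In CAT-SKL, ADDL and ADDL+CAT-SKL, the array with the higher astrocyte median was also the one with the higher mitotic median, while in CAT-SKL+ADDL the order was the opposite. The 9 neural progenitor markers had medians between -0.05 and 0.27, and the 10 oligodendrocyte lineage markers between -0.11 and 0.68. The progenitor marker Fabp7 had 1.69 and 0.65, 0.90 and 1.45, 1.51 and 1.46, and 0.59 and -0.16. It was the highest of its list on every array but ADDL+CAT-SKL 2. Of the 9 progenitor markers, 0, 2, 2 and 4 had means below 0 after CAT-SKL, ADDL, CAT-SKL+ADDL and ADDL+CAT-SKL. The 11 neuron markers had medians between -0.18 and 0.02, the 10 microglia markers between -0.12 and 0.27, the 7 endothelial and mural markers between -0.03 and 0.06, and the 8 fibroblast and meningeal markers between -0.04 and 0.15. None of these lists had a tested marker that was below background in the vehicle channel on all 8 arrays. After CAT-SKL, the treatment in which Birc5 and Ccnd1 passed, some markers of glia passed as higher too, against 0.915% of all genes. These were 3 of 10 oligodendrocyte lineage markers, 1 of 11 astrocyte markers and 1 of 10 microglia markers. In the same lists and order, 2 of 10, 1 of 11 and 4 of 10 lay below 0 in the mean of both CAT-SKL arrays. Those that passed are named here after their values were seen. The oligodendrocyte lineage genes were the receptor Pdgfra (1.56 and 0.82, adjusted p = 0.0383 in limma), which is also 1 of the fibroblast and meningeal markers, and the transcription factors Olig2 (0.65 and 0.34, adjusted p = 0.0379) and Sox10 (0.82 and 0.32, adjusted p = 0.0403). The astrocyte gene was Ndrg2, with 1.51 and 0.60 (adjusted p = 0.0495 in limma), and the microglia gene was Fcer1g, with 0.62 and 0.51 (adjusted p = 0.0243). The part of these cells in the members' values was not tested.

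**Figure D5:**
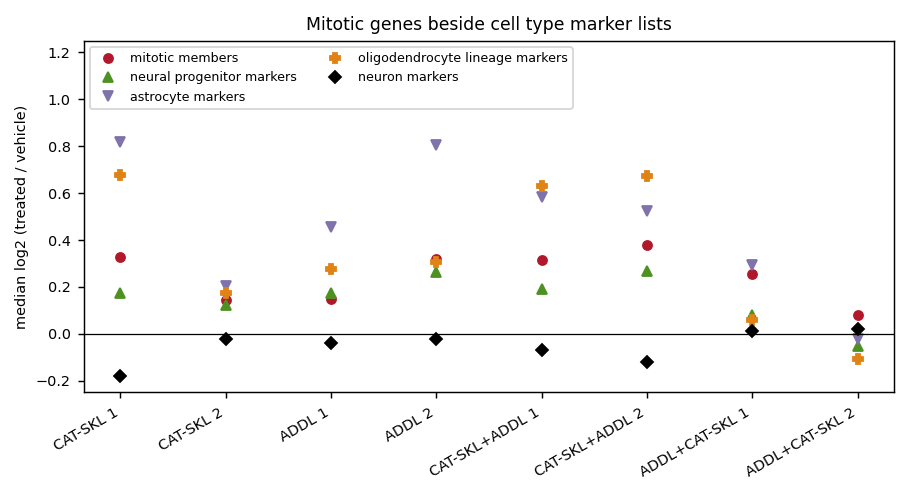
Median log2 ratio of treated over vehicle (y axis) on each of the 8 arrays (x axis) for the 22 mitotic genes and for markers of neural progenitors, astrocytes, the oligodendrocyte lineage and neurons. The astrocyte and mitotic medians are both lowest on the ADDL+CAT-SKL 2 array, at -0.02 and 0.08, while the neuron markers stay between -0.18 and 0.02.

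Dim probes limit what can be read for some members. Cdc6, Aurkb, Cenpa, Cenpf and Cdca8 were not well above background in the vehicle channel on all 8 arrays, with Cenpa and Cdca8 (a centromeric histone and a passenger subunit) above it on 2 each. These 5 genes had ratios between -0.08 and 0.20, which the offset added to each channel draws towards 0. Without them, the mitotic medians were 0.30, 0.25, 0.42 and 0.20 over 18 genes and the replication medians 0.15, 0.01, 0.17 and 0.06 over 15. Of the 9 members with a pair of probes, Rrm2 and Mcm3 had probes that differed by over 0.5 in some treatment, the second Rrm2 probe being near background. Over these 9 members and the 4 treatments, both probes had the same sign in 26 of 36 treatment means. Members with and without a motif are described only. The 12 mitotic genes with a CHR element had medians of 0.26, 0.25, 0.33 and 0.15, and the 6 without one 0.20, 0.21, 0.36 and 0.21. The 10 replication genes with an E2F core had medians of 0.10, 0.00, 0.13 and 0.06, and the 3 without one 0.16, 0.20, 0.26 and 0.11.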

How the data were processed

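The deposited files hold spot intensity per channel (median pixel brightness and local background) and a log10 ratio of Cy5 over Cy3, per the file headers. Agilent Feature Extraction 11.5 made that log10 ratio, per the submitters' processing notes; it was an alternative here, and the deposited series table holds the same values apart from rounding (median 0 on each array, largest difference 0.00500). Deposited spot flags are 0 or 1 per the file headers. Intensities were corrected by normexp (offset 50) and loess in limma 3.58.1 under R 4.3.3, with control spots at weight 0. Outlier spots (902 to 1262 per array) were dropped, no spot was saturated, and duplicate spots were averaged. Tested probes exceeded background in at least 1 channel on 2 or more of the 8 arrays; the brightest one stood for its gene. Names came from RefSeq (GRCr8), which matched 17998 of 30367 probes. The arrays were designed on another build, so only promoter windows have coordinates.

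All treatments entered 1 limma fit (lmFit and eBayes) with 7 samples; the residual degrees of freedom were 3, to which eBayes added 5.16. P-values were adjusted by Benjamini-Hochberg over 22394 genes and accessions within each comparison, with a threshold of 0.05. Ratios to vehicle were tested against 0, so spread among vehicle cultures is not included and dye effects are not separated. Errors are limma's standard errors. The CAT-SKL+ADDL arrays were averaged because their r was under 0.1, a limit set with the values known. Replicate numbers did not pair the samples (correlations of deviations -0.09, 0.08 and -0.20). The functions were tested on simulated data.

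The members and lists were chosen with earlier results of these data known. Named members were those that passed in any comparison, the 4 with the smallest p and those with the highest and lowest change in each class and treatment, those whose probes differed by over 0.5 and those not well above background. Of the longer pathway lists, genes that passed and some of the 3 with the smallest p per treatment are named; marker lists are given by medians, their calls and Fabp7.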

Additional observations from a re-analysis of the deposited data

Results flagged for a closer look

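A pair of replication genes among the 41 members had both arrays above vehicle after CAT-SKL and both below it after ADDL+CAT-SKL. The share of all genes with this pattern was not counted, so the pattern is no result about the members. Several of the values lay near 0. These treatments were in different slide rows, differed in duration and were not compared directly, so the differences were not tested. Mcm7 had 0.31 and 0.00 after CAT-SKL and -0.09 and -0.19 after ADDL+CAT-SKL, a difference of 0.30 on the log2 scale. Pcna had 0.14 and 0.01 against -0.01 and -0.06, a difference of 0.11.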

How the results depend on the processing

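The members that passed lie close to the threshold, and their number changed with the processing; the change of Birc5, Ccnd1 and Kpna2 stayed above 0 under the alternatives run. With the CAT-SKL+ADDL arrays as separate samples, 7, 9, 20 and 5 members passed after CAT-SKL, ADDL, CAT-SKL+ADDL and ADDL+CAT-SKL (1836 genes in all after CAT-SKL, against 639); with median centring in place of loess 11, 7, 5 and 2 passed, and 1385 genes were higher and 385 lower after CAT-SKL, against 205 and 434. After CAT-SKL, 5 passed with only probes above background on all arrays, 1 with no filter on dim probes, and 0 with the deposited log ratios, with the slide row of the single treatments alone, with an offset of 10 or without both ADDL+CAT-SKL arrays (the last 2 chosen after seeing the data). After ADDL+CAT-SKL, 0 passed with the deposited log ratios, no background correction, no filter or an offset of 10, and after CAT-SKL+ADDL 5 passed with its slide row alone. With the replicate number as a block, 0 members passed after CAT-SKL (14 genes in all) and 0 after ADDL+CAT-SKL, though the numbers do not pair the samples. Leaving out each array in turn gave 0 to 6 members after CAT-SKL, 0 to 6 after ADDL and 0 to 1 after ADDL+CAT-SKL; fits without an array leave some group with 1 sample, assumed to vary like the others. The deposited log ratios, which add no offset, gave larger medians: 0.22 and 0.18 for replication genes after CAT-SKL and ADDL, and 0.49, 0.47, 0.58 and 0.35 for mitotic genes in the 4 treatments. The mitotic median after CAT-SKL was 0.36 with an offset of 10, and leaving out an array gave replication medians of -0.044 to 0.14 for ADDL+CAT-SKL. Otherwise the cause of these differences was not tested. Where no number of all genes called is given beside a count of members, that count cannot be told from a general shift in calls. Such counts are thus no result about the members. The mitotic median exceeded the replication median in each treatment under every alternative run. With 2 arrays a treatment, no dye swap and 1 shared vehicle reference, small ratios and dim probes carry little weight.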
